A study of Mus musculus with 9 samples.

Results

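The interleukin 1 family and the epithelial alarmins are cytokines that keratinocytes make or store, and 10 genes of this kind were followed across 3 compartments of mouse tail epidermis: Il1a, Il1b, Il1rn, Il1f5, Il1f6, Il1f8, Il1f9, Il18, Il33 and Tslp. A gene was taken from the probe sets whose platform annotation gave a single symbol, equal to the gene's name or a synonym, and its value was the median log2 intensity of those probe sets. Of the 10 genes, 9 were measured, among 14507 genes in all, and no probe set with a single symbol named Il1f8. The rule itself used no measured value of the arrays.

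Interleukin 1 alpha is held in keratinocytes and released when they are damaged, and interleukin 1 beta and interleukin 18 are made as precursors that caspase-1 cleaves. The IL-36 cytokines of mouse (Il1f6, alpha, Il1f8, beta, and Il1f9, gamma) are epithelial agonists of their own receptor, Il1rl2, and Il1f5 encodes their antagonist, as Il1rn encodes the antagonist of interleukin 1. Interleukin 33 is a nuclear alarmin read by the receptor Il1rl1, and thymic stromal lymphopoietin (Tslp), which belongs to another cytokine family, is an alarmin read by Crlf2 with Il7r; both act on lymphoid and myeloid cells of the skin.

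The groups were the sebaceous glands (SG), the hair follicles (HF) and the interfollicular epidermis (IFE), all from the tail skin of adult female wild-type mice on a C57BL6/CBA background. Pieces of epidermis were taken by manual microdissection, and there were 3 biological replicates and so 3 arrays per group. The groups shared genotype and background, and the labels name no treatment. Each sample pooled dissected pieces, the number of animals behind a pool is not given in the sources used here, and a bulk sample of this kind also holds the other cells of the dissected tissue. The series set out to compare gene expression between these compartments; SG and HF are each compared with IFE here, and SG with HF.

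Groups follow the sample titles, yet in 9 of 9 descriptions the array name points to a different compartment. Compartment markers were used to check the titles. The mean log2 value of 11 sebocyte markers was 10.34 to 10.75 in SG, 8.26 to 8.86 in HF and 6.36 to 6.80 in IFE. For 11 hair follicle markers it was 7.84 to 9.15 in SG, 10.23 to 10.64 in HF and 6.52 to 6.56 in IFE, and for the 8 measured of 10 IFE markers it was 9.67 to 9.89 in SG, 9.63 to 10.32 in HF and 11.37 to 11.73 in IFE. Each list was thus highest in the compartment of the title, with no overlap. Single markers were less even. Krt27, Krt25 and Krt33a were 11.46, 11.60 and 10.34 in SG replicate 3, against 7.90, 7.93 and 7.42 in SG replicate 1. Lgr5 and Fgf18 were instead lowest of SG in replicate 3 (7.07 and 8.77). In SG against HF, 6 of the 11 follicle markers were called lower and 5 were not called. The share of follicle tissue in SG replicate 3 was not measured. Correlations over all genes were 0.921 to 0.977 between arrays of a compartment and 0.846 to 0.930 between compartments, and SG replicate 3 with HF replicate 2 (0.930) exceeded SG replicate 1 with SG replicate 3 (0.921). Leaving both arrays out together changed no call of a member. The array medians were 175.9 to 198.3 intensity units in SG, 195.2 to 210.3 in HF and 193.7 to 234.2 in IFE.

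All 9 measured members were tested in one limma fit over the 9 arrays and 14507 genes, and a difference was called at a Benjamini-Hochberg adjusted p under 0.05 with an absolute log2 difference of at least 1. In SG against IFE, 7 of 9 members were called lower and 0 higher, with all 9 below 0, where 6.96% of all genes were called lower and 2.54% higher. In HF against IFE, 5 of 9 were called lower and 0 higher, again with all 9 below 0, against 3.36% and 2.96% of all genes. In SG against HF, 2 were called higher, against 1.81% of all genes, and 1 lower, against 3.3%. The median log2 difference of the members was -1.15 in SG against IFE, -1.92 in HF against IFE and -0.13 in SG against HF, where the medians of all genes were -0.063, -0.071 and -0.017. By the F test across the compartments, 7 of 9 members differed at an adjusted p under 0.05, as did 24.5% of all genes. The comparisons share arrays, so their counts are not independent. The count of 7 in SG against IFE was 3 without IFE replicate 2 and 4 without IFE replicate 3. It was also 4 after quantile normalization or median centring of the arrays, which moved the median of all genes in SG against IFE to 0.16 and 0.18.

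**Figure D1:**
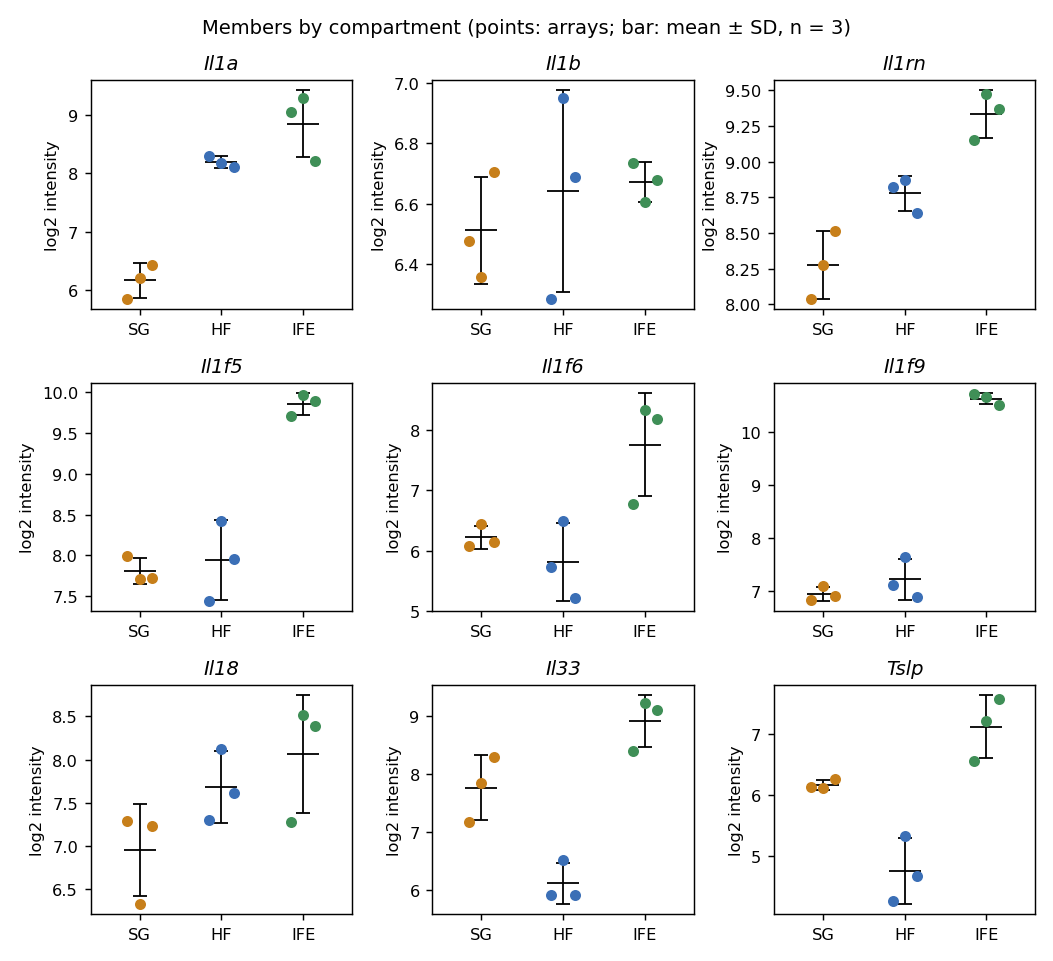
Log2 intensity of the 9 measured members in SG, HF and IFE. Each point is an array, the long bar is the mean and the whiskers are the SD (n = 3 per compartment); the vertical scale differs between panels and does not start at 0. IFE holds the highest mean in every panel, Il1a is also high in HF, and Il33 and Tslp are lowest in HF.

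**Figure D2:**
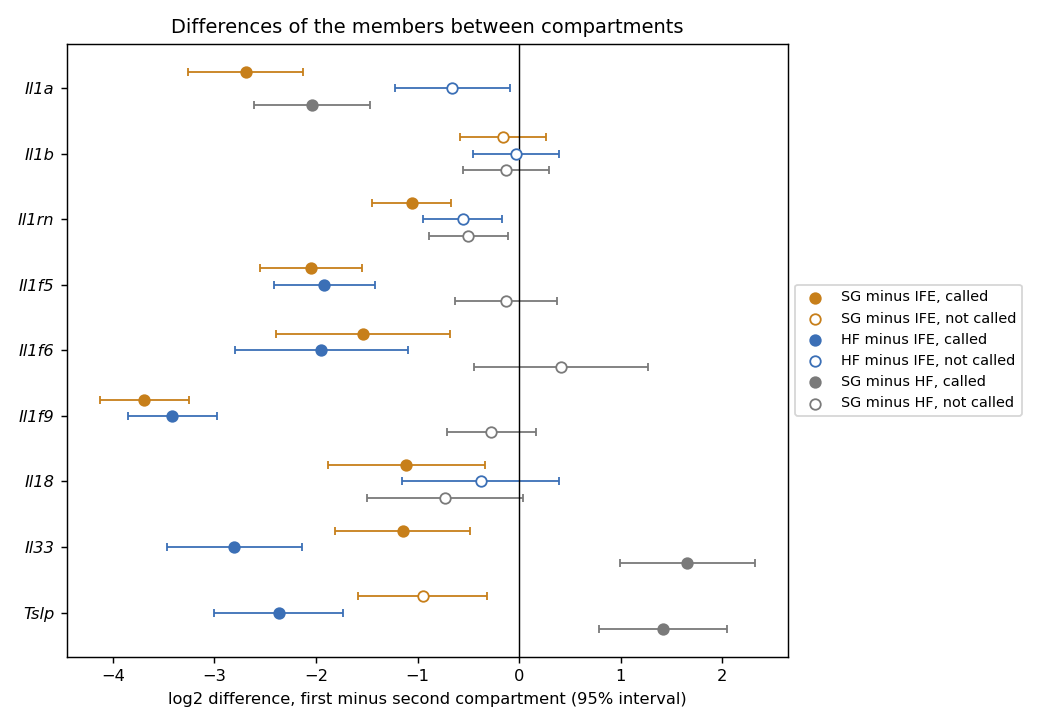
Log2 differences of the members for SG minus IFE, HF minus IFE and SG minus HF, with 95% intervals of the limma fit. Filled points were called and open points were not; the 7 calls of SG minus IFE and the 5 of HF minus IFE lie left of 0, and the SG minus HF calls of Il33 and Tslp lie right of it.

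The promoters of 4 members are printed because their levels differed in pattern over the compartments. Il1a and its antagonist Il1rn had their lowest mean in SG. Il1f9 did too, but it was high in IFE alone, with SG and HF overlapping. Il33 was lowest in HF. Each window runs from 250 bases before to 50 bases after the RefSeq start (assembly GRCm38.p6), 5′ to 3′ on the strand of the gene, and capitals mark the AP-1 motif TGANTCA, searched on both strands. The windows are chr2:129309923-129310222, minus strand, for Il1a, chr2:24336610-24336909, plus strand, for the first of 3 starts of Il1rn, chr2:24186226-24186525, plus strand, for Il1f9 and chr19:29924863-29925162, plus strand, for the first of 2 starts of Il33.
Il1a: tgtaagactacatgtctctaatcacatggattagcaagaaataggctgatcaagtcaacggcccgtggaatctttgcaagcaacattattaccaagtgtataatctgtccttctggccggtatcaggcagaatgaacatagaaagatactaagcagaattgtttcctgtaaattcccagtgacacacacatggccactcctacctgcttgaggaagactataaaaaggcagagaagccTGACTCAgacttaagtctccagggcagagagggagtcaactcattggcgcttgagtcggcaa
Il1rn: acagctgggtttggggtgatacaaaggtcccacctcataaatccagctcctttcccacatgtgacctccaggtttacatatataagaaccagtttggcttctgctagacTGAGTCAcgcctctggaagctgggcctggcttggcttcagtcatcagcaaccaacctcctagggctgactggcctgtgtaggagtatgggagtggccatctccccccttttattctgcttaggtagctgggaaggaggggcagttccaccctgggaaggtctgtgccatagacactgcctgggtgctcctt
Il1f9: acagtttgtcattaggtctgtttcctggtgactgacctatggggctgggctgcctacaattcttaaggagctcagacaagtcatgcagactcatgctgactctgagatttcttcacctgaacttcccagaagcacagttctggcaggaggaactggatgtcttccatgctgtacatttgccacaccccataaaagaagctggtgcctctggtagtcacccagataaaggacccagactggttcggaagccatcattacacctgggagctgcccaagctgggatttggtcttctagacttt
Il33: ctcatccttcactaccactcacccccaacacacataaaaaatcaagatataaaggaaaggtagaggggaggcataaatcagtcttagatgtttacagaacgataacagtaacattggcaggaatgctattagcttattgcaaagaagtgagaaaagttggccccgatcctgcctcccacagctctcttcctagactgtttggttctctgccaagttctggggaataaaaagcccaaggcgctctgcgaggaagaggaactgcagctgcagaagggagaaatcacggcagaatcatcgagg
The AP-1 motif began 12 bases before the start of Il1a and 141 bases before that of Il1rn. No window of Il1f6 or Tslp was among those searched for the members. Over the 12 windows of the 8 members searched, the motif was found in 1 other, that of Il1f8, 236 bases before the start. It is held by 7.81% of all 32851 windows. The NF-kappaB consensus was in none of the 12 windows searched for the members and in 4.51% of all windows. These matches describe letters in a window of fixed length and were set against no binding data.

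Il1a was low in SG and high in both other compartments. Its log2 values were 5.85, 6.20 and 6.43 in SG, 8.30, 8.18 and 8.11 in HF and 9.05, 9.30 and 8.21 in IFE. All SG arrays lay below all others, and IFE replicate 3 fell between the HF arrays. The level was 6.47-fold lower in SG than in IFE (log2 difference -2.69 ± 0.26 SE, adjusted p = 4.66e-05) and 4.10-fold lower in SG than in HF (-2.04 ± 0.26, adjusted p = 0.000810). Between HF and IFE the difference was -0.66 with a 95% interval of -1.23 to -0.087 and an adjusted p of 0.132, so these neighbours in the order could not be told apart at this threshold. Since each sample is bulk tissue, fewer cells of a type that makes a transcript and less of it per cell cannot be told apart, here or for the other members.

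Il1b, the neighbour of Il1a on chromosome 2, was called in no comparison. Its values were 6.48, 6.36 and 6.70 in SG, 6.29, 6.95 and 6.69 in HF and 6.74, 6.60 and 6.68 in IFE, and the groups overlapped throughout. The 95% intervals were -0.58 to 0.26 for SG minus IFE, -0.45 to 0.39 for HF minus IFE and -0.55 to 0.29 for SG minus HF, with an F test adjusted p of 0.780. A change of 1 log2 unit either way lies outside all of these intervals, which are those of the median over the probe sets. The brightest probe set alone was called higher in SG than in IFE (1.01, adjusted p = 0.0427), so the intervals do not cover the spread between probe sets. Il1b was in the lower 50% of genes by mean log2 value, as were Il1f6 and Tslp, and no detection calls were used, so small differences of these genes may be compressed.

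Il1rn, whose product blocks the interleukin 1 receptor, was graded over the compartments in the order of Il1a. It measured 8.04, 8.28 and 8.51 in SG, 8.82, 8.87 and 8.64 in HF and 9.15, 9.48 and 9.37 in IFE, with no overlap between any 2 compartments. It was 2.08-fold lower in SG than in IFE (log2 difference -1.06 ± 0.18, adjusted p = 0.00153). HF minus IFE was -0.56 (95% interval -0.95 to -0.17, adjusted p = 0.0654) and SG minus HF was -0.50 (-0.89 to -0.11, adjusted p = 0.112), neither called. The SG call lies close to the minimum difference: it was -0.94 without SG replicate 1, -0.99 without IFE replicate 2 and -0.69 under quantile normalization. Its probe sets differed widely in size of change, as described further on.

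The IL-36 genes were higher in IFE than in either other compartment. Il1f9, which encodes the agonist IL-36 gamma, stood out by its size. Its log2 values were 6.85, 7.10 and 6.90 in SG, 7.13, 7.64 and 6.90 in HF and 10.72, 10.68 and 10.52 in IFE. The IFE arrays lay above all others, and SG and HF overlapped. It was 12.9-fold lower in SG than in IFE (log2 difference -3.69 ± 0.20, adjusted p = 1.18e-06) and 10.7-fold lower in HF than in IFE (-3.42 ± 0.20, adjusted p = 4.10e-06), the 4th and the 9th lowest difference of all 14507 genes in those comparisons. SG minus HF was -0.28 (95% interval -0.71 to 0.16, adjusted p = 0.463).

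Il1f5, the antagonist of the IL-36 receptor, was highest in IFE, as Il1f9 was. It measured 7.99, 7.71 and 7.73 in SG, 7.44, 8.42 and 7.96 in HF and 9.71, 9.97 and 9.89 in IFE, and no IFE array overlapped the others. It was 4.14-fold lower in SG (log2 difference -2.05 ± 0.23, adjusted p = 0.000120) and 3.78-fold lower in HF (-1.92 ± 0.23, adjusted p = 0.000218), each against IFE. SG minus HF was -0.13 with a 95% interval of -0.63 to 0.37. Agonist and antagonist were thus both lower in SG and HF; probe sets of different genes are not on a common scale, so no ratio of the 2 levels is given.

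Il1f6, the agonist IL-36 alpha, was less even. Its values were 6.07, 6.44 and 6.14 in SG, 5.73, 6.49 and 5.21 in HF and 6.77, 8.32 and 8.17 in IFE. IFE replicate 1 lay close to the other compartments but still above them. It was 2.90-fold lower in SG (log2 difference -1.54 ± 0.39, adjusted p = 0.0155) and 3.85-fold lower in HF (-1.95 ± 0.39, adjusted p = 0.00665) than in IFE. The SG call was lost without IFE replicate 2 (-1.26, adjusted p = 0.0770) and without IFE replicate 3 (-1.33, adjusted p = 0.0668). SG minus HF was 0.41 with a 95% interval of -0.45 to 1.26.

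Il18, a keratinocyte cytokine whose precursor is cleaved by caspase-1, had values of 7.29, 6.33 and 7.23 in SG, 7.30, 8.13 and 7.61 in HF and 7.27, 8.52 and 8.38 in IFE. IFE replicate 1 lay below SG replicate 1 and below every HF array, so IFE overlapped both other groups. SG was called 2.16-fold lower than IFE (log2 difference -1.11 ± 0.35, adjusted p = 0.0421). That call was lost without SG replicate 2 (-0.80, adjusted p = 0.159), without HF replicate 3 (-1.11, adjusted p = 0.0606), without IFE replicate 2 (-0.88, adjusted p = 0.168) and without IFE replicate 3 (-0.95, adjusted p = 0.144). HF minus IFE was -0.38 (95% interval -1.15 to 0.39) and SG minus HF -0.73 (-1.502 to 0.039), and the F test adjusted p was 0.0836.

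The alarmins Il33 and Tslp had their lowest level in HF and were the only members called higher in SG than in HF. Il33 measured 7.16, 7.84 and 8.29 in SG, 5.90, 6.51 and 5.91 in HF and 8.40, 9.22 and 9.11 in IFE, with no overlap between any 2 compartments. It was 6.98-fold lower in HF than in IFE (log2 difference -2.80 ± 0.30, adjusted p = 0.000123) and 3.15-fold higher in SG than in HF (1.66 ± 0.30, adjusted p = 0.00538). SG was 2.21-fold lower than IFE (-1.15 ± 0.30, adjusted p = 0.0190), a call lost without SG replicate 1 (-0.85, adjusted p = 0.0673), IFE replicate 2 (-0.99, adjusted p = 0.0853) or IFE replicate 3 (-1.05, adjusted p = 0.0717). On the brightest probe set alone no comparison of Il33 was called, at -0.58 for SG minus IFE, -0.86 for HF minus IFE and 0.27 for SG minus HF.

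Tslp, encoded on chromosome 18, measured 6.13, 6.12 and 6.26 in SG, 4.26, 5.33 and 4.67 in HF and 6.56, 7.22 and 7.58 in IFE. Again no 2 compartments overlapped. It was 5.16-fold lower in HF than in IFE (log2 difference -2.37 ± 0.29, adjusted p = 0.000252) and 2.67-fold higher in SG than in HF (1.42 ± 0.29, adjusted p = 0.00934). The SG minus IFE difference of -0.95 (95% interval -1.58 to -0.32, adjusted p = 0.0350) fell just short of the minimum size, and without IFE replicate 1 it was -1.23 with an adjusted p of 0.00878, which is a call. On its brightest probe set, and also with dim probe sets left out, the difference was 0.043, on the other side of 0. Only 3 probe sets stand for Tslp.

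Langerhans cells are antigen-presenting cells of the epidermis, and 3 of their 6 measured markers were called lower in HF than in IFE. The mean log2 value of 6 of 7 listed Langerhans markers was 8.06 to 8.27 in SG, 7.19 to 7.47 in HF and 7.88 to 8.10 in IFE. In HF against IFE the called markers were Cd207 (log2 difference -1.02), H2-Aa (-1.25) and H2-Eb1 (-1.17). In SG against HF 3 were called higher, Cd74 (1.28), H2-Aa (1.76) and H2-Eb1 (1.38). Of all genes, 3.36% were called lower in HF against IFE and 1.81% higher in SG against HF. Epcam, which keratinocytes of the follicle also express, had the opposite order, with means of 8.96 in SG, 9.77 in HF and 9.14 in IFE, and was not called (0.63 for HF minus IFE, adjusted p = 0.105, and -0.81 for SG minus HF, adjusted p = 0.0475). The mean of 5 of 7 T cell markers was 7.26 to 7.501 in SG, 6.57 to 7.07 in HF and 6.99 to 7.37 in IFE. Thy1, the 1 called, was lower in HF than in IFE (-2.37) and higher in SG than in HF (1.92). Cd3e, Cd3g and Cd247 had higher means in HF than in IFE (7.53 against 7.45, 6.73 against 6.57 and 6.72 against 6.67). Cd3d was 6.04 in HF and 6.09 in IFE. The median difference of the T cell list was 0.057 for HF minus IFE and 0.52 for SG minus HF. These marker genes were picked for naming after their values were seen. Their part in the levels of Il33 and Tslp was not tested. The mean of 6 of 8 macrophage and neutrophil markers was 6.37 to 6.65 in SG, 6.59 to 6.76 in HF and 6.79 to 6.94 in IFE. The markers were mixed: Csf1r, Itgam and Cd68 had their highest mean in IFE (7.36, 6.96 and 8.74). Lyz2 and Csf3r had their lowest mean there (5.67 and 6.32), and Adgre1 in IFE (5.99) lay between SG and HF. The list median was -0.036 for SG minus IFE and -0.27 for HF minus IFE. For 4 of 6 mast cell markers the mean was 6.32 to 6.59 in SG, 6.26 to 6.43 in HF and 6.07 to 6.22 in IFE. For 5 of 6 fibroblast markers it was 7.06 to 7.64 in SG, 7.41 to 7.48 in HF and 6.95 to 7.21 in IFE. For 5 endothelial markers the ranges were 6.71 to 6.90 in SG, 6.52 to 6.74 in HF and 6.39 to 6.73 in IFE, and for 4 of 5 melanocyte markers 6.96 to 8.53 in SG, 6.92 to 7.09 in HF and 6.66 to 7.36 in IFE. Without detection calls, no marker can be said to be absent.

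The genes can also be read in their order on the chromosome. On chromosome 2 of mouse, 6 protein-coding genes of the family follow each other as Il1f8, Il1f9, Il1f6, Il1f5, Il1f10 and Il1rn, of which 5 were measured. Il1f9, Il1f6 and Il1f5 were called lower in both SG and HF against IFE, and Il1rn was called lower in SG. Il1f10, which encodes IL-38 and lies between Il1f5 and Il1rn, was the exception: its values were 6.79, 6.20 and 7.48 in SG, 8.95, 8.72 and 8.75 in HF and 6.52, 7.01 and 6.72 in IFE. It was 4.16-fold higher in HF than in IFE (log2 difference 2.06 ± 0.28, adjusted p = 0.000460) and 3.96-fold lower in SG than in HF (-1.98 ± 0.28, adjusted p = 0.00119), with no overlap, and both calls held under all 23 alternative settings. SG minus IFE was 0.07 for Il1f10 (95% interval -0.53 to 0.67).

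**Figure D3:**
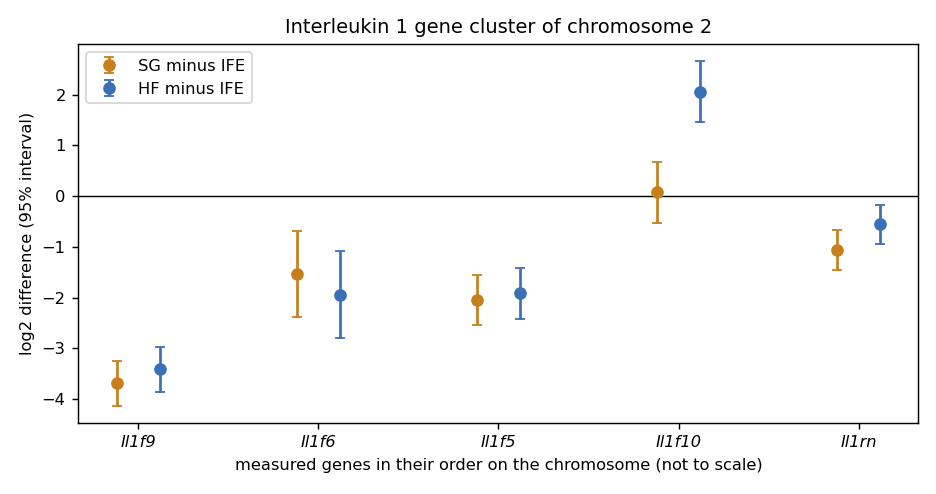
Log2 differences of the measured genes of the chromosome 2 stretch from Il1f9 to Il1rn, in chromosome order and not to distance, for SG minus IFE and HF minus IFE with 95% intervals. The HF point of Il1f10 lies at 2.06, above 0, between the negative values of its neighbours Il1f5 and Il1rn.

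Exon arrays measure a gene by several probe sets, and the members differed in how far these agreed. Over all 146964 probe sets with a single symbol, 15.5% were called in either direction in SG against IFE, 6.85% in HF against IFE and 5.79% in SG against HF. The share at an unadjusted limma p under 0.05 was not counted over all probe sets, so counts of that kind have no background here. All 6 probe sets of Il1f9 were called lower in SG (-4.50 to -2.81) and in HF (-4.19 to -2.66) against IFE. All 6 of Il1a were called lower in SG against IFE (-3.09 to -2.39) and against HF (-2.56 to -1.47), and 0 of 6 in HF against IFE (-0.92 to -0.53), where 3 had an unadjusted limma p under 0.05. Il1f5 had 6 of 8 called lower in SG and 7 of 8 in HF, and Il1f6 had 4 of 6 in SG and 5 of 6 in HF, each against IFE.

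The alarmins were less even over their probe sets in the SG comparison. All 10 probe sets of Il33 were lower in SG than in IFE (-1.65 to -0.36), 8 of them at an unadjusted limma p under 0.05, but 2 were called. In HF against IFE 8 of 10 were called lower (-3.83 to -0.86), and in SG against HF 4 of 10 were called higher (0.27 to 2.18). For Tslp, 0 of 3 were called in SG against IFE (-0.95 to 0.04; 1 with an unadjusted limma p under 0.05), 2 of 3 lower in HF against IFE (-2.45 to -0.88) and 2 of 3 higher in SG against HF (0.71 to 1.502). Il18 had 4 of 7 called lower in SG against IFE (-2.18 to -0.39), 3 of 7 lower in SG against HF (-1.78 to -0.04) and 0 of 7 in HF against IFE, where 0 had an unadjusted p under 0.05. Of the 5 probe sets of Il1b, 1 was called higher in SG against IFE (1.01, adjusted p = 0.0427) and the other 4 lay between -0.33 and 0.10.

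The probe sets of Il1rn ran over a wide span. In SG against IFE, 5 of 9 were called lower, at -2.35 to -1.52, the other 4 lay between -0.88 and 0.24, and 8 of 9 were lower at an unadjusted limma p under 0.05. One of the called probe sets measured 8.49, 8.28 and 8.53 in SG, 9.02, 9.23 and 9.13 in HF and 10.30, 10.57 and 10.42 in IFE, a log2 difference of -2.00 for SG minus IFE. One of the other probe sets measured 9.56, 10.17 and 10.09 in SG, 10.46, 10.39 and 10.47 in HF and 10.44, 10.52 and 10.70 in IFE, a difference of -0.62. Il1rn has several RefSeq starts, as the promoter windows show, but the positions of the probe sets in its exons were not used here, so the span was not tied to any transcript.

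**Figure D4:**
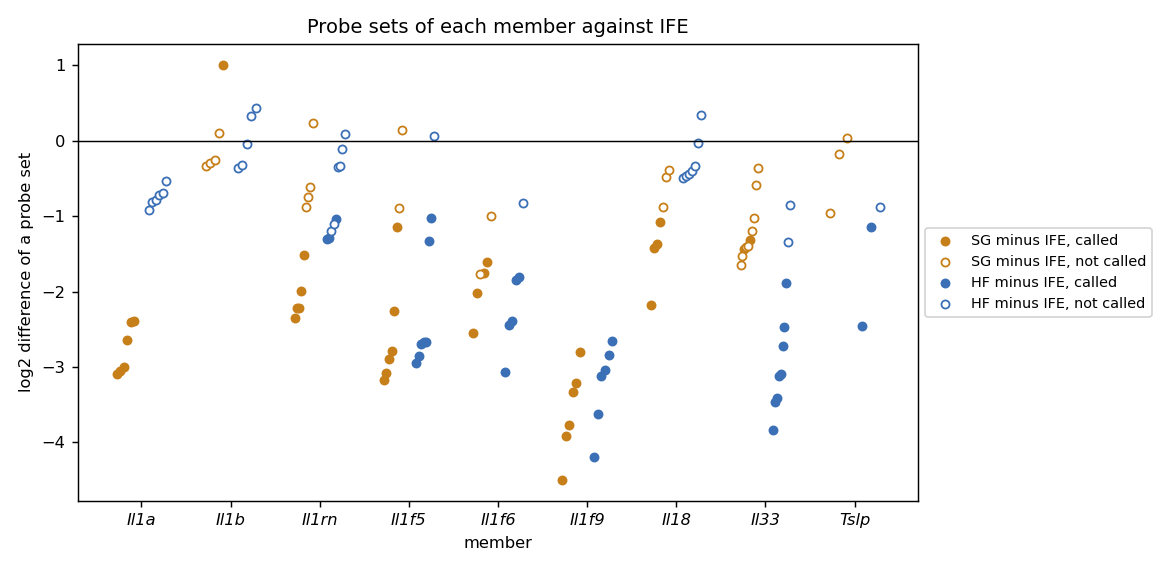
Log2 difference of each probe set of each member for SG minus IFE and HF minus IFE; filled points were called. The 6 probe sets of Il1f9 lie below -2.5 in both comparisons, those of Il1a are called in SG alone, and Il1rn spans -2.35 to 0.24 in SG.

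Receptor chains of interleukin 1 and of the IL-36 cytokines, Il1r1, Il1rap and Il1rl2, were called lower in SG than in IFE, but under quantile normalization Il1r1 (-0.91) and Il1rl2 (-0.96) fell short of the minimum. Of 12 listed receptors and decoys, 8 were measured, and Il1rl1, Il18bp, Il1rapl1 and Crlf2 had no probe set with a single symbol. In SG against IFE 0 were called higher and 3 lower, in HF against IFE 0 higher and 2 lower, and in SG against HF 1 higher and 1 lower. Of all genes, 6.96%, 3.36% and 3.3% were called lower in these comparisons and 2.54%, 2.96% and 1.81% higher. The median differences of the list were -0.44, -0.12 and 0.01, where the medians of all genes were -0.063, -0.071 and -0.017.

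Il1r1, the signalling receptor of interleukin 1, was low in SG, as Il1a was. It measured 7.39, 8.16 and 8.14 in SG, 9.40, 9.12 and 9.23 in HF and 9.02, 9.43 and 8.98 in IFE, with every SG array below all others. It was 2.37-fold lower in SG than in IFE (log2 difference -1.25 ± 0.23, adjusted p = 0.00239) and 2.56-fold lower in SG than in HF (-1.35 ± 0.23, adjusted p = 0.00323), and HF minus IFE was 0.11 (95% interval -0.39 to 0.60). With the letter of the array name as a block, the call of SG minus HF was lost (-1.03, adjusted p = 0.0607). That block in effect leaves out SG replicate 1, HF replicate 1 and IFE replicate 3, whose letters no other array shares. Without SG replicate 1 the difference of SG from IFE was -0.996, short of the minimum. Il1rap, the accessory chain shared by the receptors of interleukin 1, IL-33 and IL-36, was 2.37-fold lower in SG than in IFE (-1.24 ± 0.24, adjusted p = 0.00364), and its difference of -0.71 in HF was not called (adjusted p = 0.0831).

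Il1rl2, the receptor of the IL-36 cytokines, had its highest level in IFE, as Il1f9 and Il1f6 did. It measured 7.40, 7.74 and 8.17 in SG, 7.60, 8.03 and 7.62 in HF and 8.56, 9.41 and 9.23 in IFE, with the IFE arrays above all others. It was 2.45-fold lower in SG (log2 difference -1.29 ± 0.26, adjusted p = 0.00414) and 2.49-fold lower in HF (-1.31 ± 0.26, adjusted p = 0.00589) than in IFE, and SG minus HF was 0.02 (95% interval -0.54 to 0.58). Both calls were lost with the letter of the array name as a block.

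Il1r2, a decoy that binds interleukin 1 without signalling, measured 7.29, 7.44 and 8.496 in SG, 5.38, 6.62 and 5.57 in HF and 7.33, 9.33 and 9.40 in IFE. It was 7.13-fold lower in HF than in IFE (log2 difference -2.83 ± 0.52, adjusted p = 0.00410; -2.24 and adjusted p = 0.0674 with the letter block). SG was 3.70-fold higher than HF (1.89 ± 0.52, adjusted p = 0.0424), but leaving out any of 5 arrays ended that call, at 2.11 without SG replicate 1, 2.04 without SG replicate 2, 1.51 without SG replicate 3, 1.65 without HF replicate 1 and 1.74 without HF replicate 3. SG minus IFE was -0.95 (95% interval -2.09 to 0.19), and without IFE replicate 1 it was -1.63 with an adjusted p of 0.0149.

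Il18r1, the binding chain of the interleukin 18 receptor, was lowest in IFE. It measured 7.07, 6.68 and 6.72 in SG, 6.71, 7.16 and 6.80 in HF and 6.01, 6.47 and 5.98 in IFE, with IFE below both. The differences of 0.67 for SG minus IFE (adjusted p = 0.0330) and 0.74 for HF minus IFE (adjusted p = 0.0337) were under the minimum size. Il7r, a chain of the receptor of Tslp, had differences of 0.31, -0.14 and 0.44 in SG minus IFE, HF minus IFE and SG minus HF, none called.

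**Figure D5:**
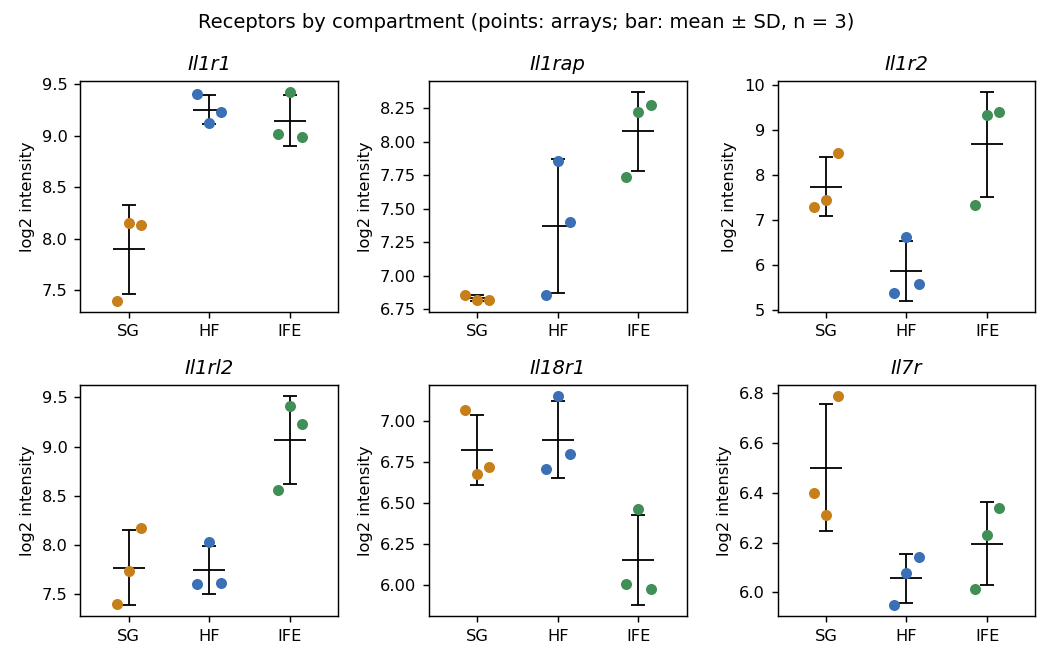
Log2 intensity of 6 receptor genes in SG, HF and IFE, drawn as for the members (points are arrays, bars are mean ± SD, n = 3 per compartment; scales differ between panels and do not start at 0). Il1r1 is lowest in SG, Il1r2 in HF, Il1rl2 is highest in IFE and Il18r1 is lowest in IFE.

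Of 19 listed genes of the signalling chain behind these receptors, 17 were measured. In SG against IFE 0 of the 17 were called higher and 2 lower, where 6.96% of all genes were called lower. In HF against IFE it was 0 and 1, where 3.36% were, and in SG against HF 0 in either direction, with list medians of -0.79, -0.45 and -0.22. At an unadjusted limma p under 0.05, 12, 8 and 4 of the 17 were lower and 0 higher in these comparisons. The share of all genes at that threshold was not counted, so these counts have no background to be read against. The medians of all genes were -0.063, -0.071 and -0.017, and with dim genes left out that of SG minus IFE was -0.27. Tollip, an adaptor that dampens interleukin 1 receptor signalling, was 3.58-fold lower in SG (log2 difference -1.84 ± 0.20, adjusted p = 0.000100) and 2.34-fold lower in HF (-1.23 ± 0.20, adjusted p = 0.00182) than in IFE; the HF call was lost with the letter block (-1.01, adjusted p = 0.0596) and under quantile normalization (-0.99). Chuk, the kinase IKK alpha, was called lower in SG against IFE (-1.01 ± 0.23, adjusted p = 0.00893), but it was -0.81 without SG replicate 2, -0.99 without SG replicate 3 and -0.87 without IFE replicate 2, all short of the minimum. The count in SG against IFE was 6 without IFE replicate 1 and 1 without SG replicate 2 or IFE replicate 2, that in HF against IFE was 2 without HF replicate 2 or IFE replicate 1, and that in SG against HF was 1 without SG replicate 3 or HF replicate 2.

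Of 20 genes for processing and release, 17 were measured. In SG against IFE 0 were called higher and 3 lower, in HF against IFE 0 and 4, and in SG against HF 1 and 1. Of all genes, 6.96%, 3.36% and 3.3% were called lower and 2.54%, 2.96% and 1.81% higher. The list medians were -0.60, -0.12 and 0.17. The 4 calls in HF against IFE became 2 without HF replicate 3, and the 2 in SG against HF became 1 without SG replicate 2, IFE replicate 2 or any HF array. Casp1, the protease that cleaves the precursors of interleukin 1 beta and interleukin 18, differed by -0.71 ± 0.25 in SG (adjusted p = 0.0585) and by -0.99 ± 0.25 in HF (adjusted p = 0.0217) from IFE, neither called. The HF difference became a call without HF replicate 2 (-1.16) and without IFE replicate 1 (-1.25).

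Pycard, the inflammasome adaptor ASC, was lower in HF than in IFE (log2 difference -1.68 ± 0.35, adjusted p = 0.00760; -1.34 and adjusted p = 0.124 with the letter block). It was also called lower in SG (-1.07 ± 0.35, adjusted p = 0.0454), and leaving out SG replicate 1 (-0.88) or 2 (-0.99), HF replicate 3 (-1.07), or IFE replicate 2 (-0.96) or 3 (-1.01) ended that call. Gsdma, a pore-forming gasdermin of skin, was lower in SG than in IFE (-1.59 ± 0.24, adjusted p = 0.000840) and in SG than in HF (-1.72 ± 0.24, adjusted p = 0.00135). Gsdmc was lower in SG (-1.505 ± 0.36, adjusted p = 0.0106) and in HF (-1.86 ± 0.36, adjusted p = 0.00498) than in IFE, and with the letter block both calls were lost (adjusted p = 0.118 and 0.0987); both gasdermins have close copies in mouse whose signal these probe sets may share.

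Casp4, a caspase of the inflammatory group, was lower in HF than in IFE (-1.39 ± 0.31, adjusted p = 0.0112; -1.10 and adjusted p = 0.0565 without HF replicate 3). Ctss, a lysosomal protease of antigen-presenting cells, was lower in HF than in IFE (-1.12 ± 0.33, adjusted p = 0.0479) and higher in SG than in HF (1.17 ± 0.33, adjusted p = 0.0475). The first of these calls was lost without SG replicate 1 (-1.12), any HF array (-1.06, -1.20 and -1.11 without replicates 1, 2 and 3), IFE replicate 2 (-0.90) or IFE replicate 3 (-0.90). The second was lost without SG replicate 1 (1.29), SG replicate 2 (0.93), any HF array (1.11, 1.25 and 1.15) or IFE replicate 2 (1.17).

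Of 26 listed genes known to respond to these cytokines, 22 were measured, with 1 called higher and 4 lower in SG against IFE, 2 and 3 in HF against IFE and 0 and 1 in SG against HF, and list medians of -0.40, -0.36 and 0.05. Of all genes, 2.54%, 2.96% and 1.81% were called higher and 6.96%, 3.36% and 3.3% lower in these comparisons, so the 1 of 22 in SG against HF is near the background. The 5 calls in SG against IFE became 2 without SG replicate 2 and 3 without IFE replicate 1, the 5 in HF against IFE became 2 without HF replicate 2 or 3 and 3 without IFE replicate 1 or 2, and the 1 in SG against HF became 0 without SG replicate 1 or 2 or HF replicate 2 or 3. Nfkbiz, a nuclear IkappaB protein that interleukin 1 and IL-36 induce, measured 7.67, 7.53 and 7.55 in SG, 7.22, 7.93 and 7.56 in HF and 9.56, 9.33 and 8.78 in IFE. It was 3.12-fold lower in SG (log2 difference -1.64 ± 0.23, adjusted p = 0.000499) and 3.14-fold lower in HF (-1.65 ± 0.23, adjusted p = 0.000642) than in IFE. Nfkbia, the inhibitor of NF-kappaB, was lower in SG (-1.34 ± 0.27, adjusted p = 0.00436) and in HF (-1.38 ± 0.27, adjusted p = 0.00552) than in IFE. Under quantile normalization its SG difference was -0.993, short of the minimum.

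S100a8, a subunit of the antimicrobial protein calprotectin, went the other way. It measured 7.19, 8.10 and 7.36 in SG, 7.22, 8.22 and 7.51 in HF and 5.86, 7.01 and 5.56 in IFE, and no IFE array overlapped the others. It was 2.65-fold higher in SG (log2 difference 1.41 ± 0.38, adjusted p = 0.0199) and 2.84-fold higher in HF (1.51 ± 0.38, adjusted p = 0.0222) than in IFE. The SG call was lost without SG replicate 2 (1.14), IFE replicate 1 (1.27) or IFE replicate 3 (1.12), and the HF call without HF replicate 2 (1.22), HF replicate 3 (1.58), IFE replicate 1 (1.36) or IFE replicate 3 (1.21).

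Its partner subunit S100a9 was called higher in HF (1.04 ± 0.28, adjusted p = 0.0309) and was just short of the minimum in SG (0.98 ± 0.28, adjusted p = 0.0260), each against IFE. Leaving out HF replicate 2 (0.90) or 3 (1.04), or IFE replicate 1 (1.02), 2 (1.18) or 3 (0.93), ended the HF call of S100a9. Defb14, a beta-defensin, was lower in SG than in IFE (-1.36 ± 0.37, adjusted p = 0.0203) and than in HF (-1.48 ± 0.37, adjusted p = 0.0252). Its first call was lost without IFE replicate 2 (-1.07), SG replicate 1 (-1.20) or SG replicate 2 (-1.34), and its second without HF replicate 2 (-1.06), HF replicate 3 (-1.56), SG replicate 1 (-1.32) or SG replicate 2 (-1.46). The remaining calls of the list, named after their values were seen, were each lost when certain single arrays were left out. Tnfaip3, an inhibitor of NF-kappaB signalling, was called lower in SG than in IFE (-1.14 ± 0.35, adjusted p = 0.0374), with IFE values of 8.12, 8.81 and 6.97, the last within the SG range of 6.66 to 7.02. It was -0.71 without IFE replicate 2 (adjusted p = 0.147), and the call was also lost without IFE replicate 1, HF replicate 1 or 3, or any SG array. The acute phase gene Saa3 was called lower in HF than in IFE (-1.02 ± 0.28, adjusted p = 0.0343), with IFE values of 5.51, 6.62 and 5.32. It was -0.62 without IFE replicate 2 (adjusted p = 0.0732), and the call was also lost without any of the HF arrays.

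Of the immediate early genes, which many cells switch on within a short time of handling or stress, most of those measured were called lower in SG than in IFE and fewer in HF than in IFE. Their mean log2 value over 14 of 15 listed genes was 7.99 to 8.36 in SG, 8.54 to 9.06 in HF and 9.19 to 9.97 in IFE, with IFE replicate 3 the lowest of IFE. In SG against IFE 0 were called higher and 10 lower, with a list median of -1.52, and in HF against IFE 1 was called higher and 5 lower, with a median of -0.77. In SG against HF, 0 were called higher and 1, Btg2 (-1.13), lower, with a median of -0.54. Without SG replicate 3, 2 were called there. Of all genes, 6.96%, 3.36% and 3.3% were called lower in these comparisons and 2.54%, 2.96% and 1.81% higher. The medians of all genes were -0.063, -0.071 and -0.017. Against IFE, the log2 difference of Atf3 was -2.95 in SG and -2.43 in HF, that of Dusp1 was -2.45 and -2.18, that of Zfp36 was -2.44 and -1.75 and that of Btg2 was -2.36 and -1.23. Egr2 went the other way, higher in HF than in IFE (1.63, called), with a difference of 0.92 for SG minus IFE (adjusted p = 0.0232, under the minimum). Nfkbiz and Il1a also had their lowest IFE value in replicate 3, at 8.78 and 8.21, as did Il1f9 (10.52). Most members did not: Il1rn, Il1f5, Il1f6, Il18, Il33 and Tslp were lowest of IFE in replicate 1, and Il1b in replicate 2. The part of the immediate early genes in the levels of Il1a, Nfkbiz and Nfkbia was not tested.

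For each member past the F test, the genes of most similar profile over the 9 arrays were taken from 12417 named genes with at least 3 probe sets. These correlations are descriptions, since the arrays share their compartments, and carry no test. Map3k8 (Pearson r 0.987), B3gnt2 (0.984) and Ccdc71l (0.979) were nearest to Il1a, and Mylip (0.987), Ap1b1 (0.986) and Marveld2 (0.986) to Il1rn. For Il1f9 they were Acbd5 (0.994), Pla2g4e (0.992) and Asah2 (0.990), for Il1f5 Pdpk1 (0.996), Clec2g (0.992) and Hal (0.991), and for Il1f6 Sema3d (0.979), C1s1 (0.977) and Aga (0.971). Naa50 (0.984), Mettl7a1 (0.983) and Fgfbp1 (0.980) were nearest to Il33, and Ctnnal1 (0.991), Adss (0.983) and Lgals8 (0.981) to Tslp.

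Among the members themselves, over the same 9 arrays, the pair Il1f5 and Il1f9 had an r of 0.973, Il33 and Tslp 0.966, and Il1a and Il1rn 0.900. For Il1a with Il33 it was 0.138, and for Il1a with Tslp 0.077. These do not form separate sets: Il1f6 had an r of 0.865 with Tslp and 0.853 with Il33, beside 0.859 with Il1f5 and 0.846 with Il1f9, and Il1rn had 0.867 with Il1f9. Every measured member had its highest mean in IFE. The lowest mean was in SG for Il1a, Il1b, Il1rn, Il1f5, Il1f9 and Il18, and in HF for Il1f6, Il33 and Tslp. Only Il1a, Il33 and Tslp were called between SG and HF, and Il1b was called in no comparison. For the other members the order of SG and HF was therefore not settled.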

How the data were processed

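Per the labels' protocols, RNA of the 9 samples (RNeasy micro kit) was amplified by WT-Ovation Pico with its Exon Module and biotin-labelled. RMA, Affymetrix Power Tools and mm9 are named, with no versions or order, in the submitters' processing notes. The authors deposited linear intensity values, 2.50 to 30815, for 154736 probe sets, whereas RMA output is usually in log2; log2 was taken with no pseudocount. Of the probe sets, 146964 had 1 symbol in the platform annotation, 1060 several and 6712 none, giving 14507 genes with a median of 8 probe sets. Symbols were updated for 1754 through a RefSeq table of GRCm38.p6, which held 14472 genes. That table also gave the order of genes.

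limma 3.58.1 in R 4.3.3 was fitted with 1 mean per compartment, then eBayes, with Benjamini-Hochberg adjustment over all genes or all probe sets; code was tested on simulated data. Each SE is that of the fit, with a median of 0.207, and the number of arrays limits the precision. The labels call the replicates biological and give no batch. All members are named. From lists of related genes the rule named up to 4 called genes of smallest p per comparison, up to 2 of the opposite direction, and the receptors and protease of the members. The members and lists were chosen with earlier results of these data known. Alternatives were blocks, scaling, filters, gene summaries, variance models, thresholds and left-out arrays.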

Additional observations from a re-analysis of the deposited data

How the results depend on the processing

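Over 23 alternative settings and 27 member differences, 549 of 612 values kept direction and call, 32 lost a call, 6 gained one and 25 turned direction. Of 15 called differences, 7 were called under every setting run: Il1a in SG minus IFE and SG minus HF, Il1f5 and Il1f9 in SG and in HF against IFE, and Tslp in HF minus IFE. The 7 members called in SG minus IFE became 3 with the letter of the array name as a block, 4 under quantile normalization, 4 under median centring and 4 at a minimum log2 difference of 1.5; with 1 array left out they were 3 to 8. The 5 called in HF minus IFE became 3 without dim genes, where Il1f6, Tslp and Il1b were no longer tested. The 3 of SG minus HF stayed at 2 to 3, and the 7 past the F test at 5 to 9. Calls lost with the letter block were Il1rn (-0.92), Il1f6 (-1.26), Il18 (-1.12) and Il33 (-0.75) in SG minus IFE, Il1f6 (-1.70) in HF minus IFE and Tslp (1.19) in SG minus HF, and Il1a was gained in HF minus IFE (-1.03). Among other named genes the letter block ended the calls of Il1rl2, Gsdmc, Pycard, S100a8 and Defb14 in SG minus IFE, of Il1r2, Il1rl2, Tollip, Gsdmc, Pycard, Ctss, S100a8, S100a9 and Saa3 in HF minus IFE, and of Il1r1, Il1r2, Ctss and Defb14 in SG minus HF. Where no cause is named, the cause was not tested.

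Replicate numbers are shared by the groups, but deviations of same-numbered arrays correlated at -0.019 to 0.225, not all over 0.1, so the numbers were not taken as pairs; with a replicate block the counts were again 7, 5 and 3 members, and 1398, 944 and 781 genes against 1377, 916 and 741. All genes called ranged over 483 to 3171 in SG minus IFE, 420 to 1750 in HF minus IFE and 302 to 1373 in SG minus HF, with the extremes at the thresholds of 1.5 and of none. Dim genes left out gave 597 in HF minus IFE, and the letter block 392 in SG minus HF. Scaling moved the split of higher against lower genes in SG minus IFE to 613 and 474 (quantile) and 646 and 570 (centring), against 368 and 1009, in HF minus IFE to 495 and 354, and 522 and 396, against 429 and 487, and in SG minus HF to 405 and 399, and 382 and 375, against 262 and 479. The median of all genes in SG minus HF moved to 0.13 and 0.12.

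Of the values that turned direction, Tslp in SG minus IFE had the largest reported difference (-0.95), and was 0.043 without dim probe sets and on the brightest one. Il1b in SG minus IFE was 1.01 on its brightest probe set (adjusted p = 0.0232, a call), and 0.081 under median centring, 0.077 without dim probe sets and 0.045 with the mean of probe sets. Il1b in HF minus IFE was 0.15 with the letter block, 0.074 under centring, 0.10 without dim probe sets, 0.00686 with the mean and 0.43 on the brightest probe set. In SG minus HF it was 0.015 under quantile normalization, 0.00705 under centring, 0.038 with the mean and 0.58 on the brightest probe set. With 1 array left out, Il1b was -0.19 to 0.15 in HF minus IFE and -0.31 to 0.025 in SG minus HF. Il18 in HF minus IFE was 0.34 on the brightest. Il1f5 in SG minus HF was 0.011 (quantile), 0.00379 (centring), 0.17 (dim probe sets out), 0.00669 (mean), 0.15 (SG replicate 3 and HF replicate 2 out) and -0.38 to 0.11 with 1 array left out. Il1f6 in SG minus HF was -0.076 without dim probe sets. Il7r in SG minus IFE was -0.14 without dim probe sets and on the brightest, Il1r1 in HF minus IFE -0.046 with the letter block, and Casp1 in SG minus HF -0.022 with the mean. Il1rl2 in SG minus HF was -0.48 (mean), -0.50 (brightest), -0.038 (both arrays out) and -0.18 to 0.20 with 1 array left out. Il18r1 in SG minus HF was 0.070 (quantile and centring), 0.16 (dim probe sets out), 0.15 (mean), 0.18 (brightest), 0.12 (both arrays out) and -0.19 to 0.068 with 1 array left out.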
